A study of Mus musculus with 203 samples.

Results

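The response of control RAW264.7 cells to interleukin 4 (IL4) was measured by RNA-seq in 4 untreated and 4 IL4-treated libraries. The genes described were those of the deposited table that reached 1 or more in 4 or more of its 16 libraries, which left 12905 of 25094 listed genes. RAW264.7 is a mouse macrophage line of BALB/c origin that was established from a tumour induced by Abelson leukaemia virus. The control cells carried shGFP, a short hairpin RNA against green fluorescent protein delivered with the lentiviral vector pLKO.1 and selected with puromycin, and they were either left untreated or given 20 ng/ml of IL4 for 6 h. The table also holds the same 2 conditions for shKDM1A cells, which were made in the same way with a hairpin against the histone demethylase KDM1A and served for comparison, and these 16 libraries belong to a series of 203 samples. Both lines were stable, and the treatment protocol in the labels is written for bone marrow-derived macrophages although the samples are labelled as RAW264.7. The study's methods describe its experiments in general as done with biological replicates, but do not say what separates the libraries of a group here, so the p-values measure only the spread between these libraries.

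IL4 is a type 2 cytokine that binds a receptor of IL4RA with either the common gamma chain or IL13RA1, which activates Janus kinases and the transcription factor STAT6. In macrophages it is known for alternative activation, a state marked by the mannose receptor and other lectins, and by changes in lipid handling. STAT6 is known to bind the short motifs TTC and GAA set 4 bases apart, while other STAT proteins prefer a gap of 3 bases.

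The values are logarithms to base 2 of read counts that the authors' software had adjusted for library size and shrunk for genes with few reads, so a difference of 1 is a doubling and changes of weakly expressed genes are understated. Totals in the headers ran from 18935438.5 to 25135581.0 tags in the 8 shGFP libraries, and the median value over the genes tested lay between 9.24 and 9.26 in each of them. Of 10 macrophage markers, 9 were tested, 2 rose and 3 fell, where 13.1% of all genes tested rose and 13.7% fell. Mertk alone of the 10 stayed below 1 in every shGFP library. All markers of B cells, mast cells, fibroblasts and epithelial cells stayed below 1, as did 6 of 7 neutrophil, 5 of 6 T cell, 4 of 8 dendritic cell and 2 of 4 endothelial markers. Among the 4 tested dendritic cell markers Itgax alone was called, and it rose by 0.54 ± 0.03. The log2 of the list's summed unlogged values went from 6.95 to 7.08 without IL4 to 7.40 to 7.52 with it. Itgax outweighs the others in this sum, at a mean of 7.0 against 4.1 for Zbtb46, the next highest. The summed macrophage markers gave log2 values of 17.66 to 17.71 without IL4 and 17.34 to 17.37 with it. Lyz2, lysozyme, has the highest mean of this list and weighs most in the sum, and it fell by 0.53 ± 0.03. Cd14 of the same list fell by 0.93, whereas Adgre1 rose by 1.24. With 2 markers called higher and 3 lower, the lower sum does not describe the list as a whole. Kdm1a, the gene targeted in the other line, had values of 11.21, 11.23, 11.13 and 11.17 without and 11.12, 11.10, 11.12 and 11.07 with IL4 in shGFP cells, against a range of 10.23 to 10.36 in untreated shKDM1A cells. Its small decrease with IL4 in shGFP cells (-0.08 ± 0.03, adjusted p = 0.0481) lost the call when any single shGFP library other than untreated replicate 3 was left out, as did an increase of Gps2, a corepressor subunit (0.12 ± 0.04, adjusted p = 0.0235), without untreated replicate 2 or 4 or treated replicate 3 or 4 (lowest value 0.09). Untreated shGFP replicates 1 and 4 stood apart from replicates 2 and 3 along the third principal component, at 3.2 and 5.42 against 0.49 and 0.27, and this component held 5.4% of the variance. Without both, 1168 genes were called higher and 1216 lower, and 14 of the genes named here lost their call, Kdm1a (-0.08) among them.

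Adding IL4 raised 1694 genes (13.1% of those tested) and lowered 1772 genes (13.7%), at an adjusted p under 0.05. Together these are 26.9% of the genes tested, and the 4 values of one group lay wholly above or below the 4 of the other for 28.3%. Most changes were small. The median absolute log2 fold change of the genes called was 0.15, and 2446 of the 3466 changed by less than 0.2, while 101 genes (0.783%) rose and 73 (0.566%) fell by more than 0.5, and 21 (0.163%) rose and 5 (0.0387%) fell by more than 1. Across all genes tested, the median change was close to 0 and the median standard error was 0.03. When genes were ordered by their mean over the 8 libraries per kilobase of exon, 42.0% of the highest 3227 were called, against 10.4% of the lowest 3226.

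**Figure D1:**
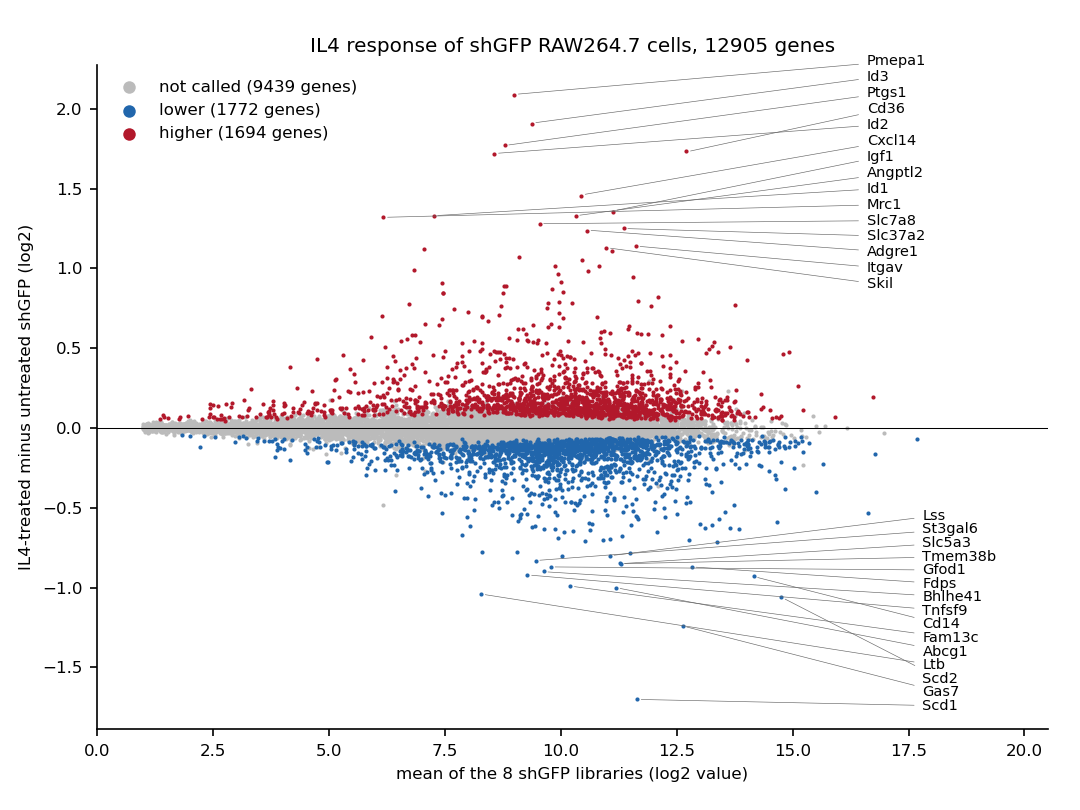
Each point is 1 of 12905 genes, with its mean log2 value over the 8 shGFP libraries on the x axis and the log2 difference between IL4-treated and untreated libraries on the y axis. Genes called higher are red, genes called lower are blue, and the 15 largest changes each way are named, from Pmepa1 at 2.09 to Scd1 at -1.70.

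The largest increase was that of Pmepa1, a membrane adaptor known as a target and inhibitor of TGF-beta signalling. Its values were 8.06, 7.91, 7.81 and 8.02 without IL4 and 10.05, 9.95, 10.05 and 10.10 with it. The lowest treated library exceeded the highest untreated one by far more than either group varied, and the log2 fold change was 2.09 ± 0.05 (standard error, n = 4 per group, 4.25-fold, adjusted p = 3.01e-14). Id3, an inhibitor of basic helix-loop-helix transcription factors, had values of 8.56, 8.44, 8.33 and 8.35 without IL4 and 10.35, 10.27, 10.36 and 10.33 with it. Here too the groups were far apart, with a change of 1.91 ± 0.05. Its relatives Id2 and Id1 rose by 1.72 ± 0.06 and 1.33 ± 0.05, from means of 7.71 and 6.59, and neither had overlapping groups.

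Ptgs1, which encodes cyclooxygenase 1, came next after Id3. It was measured at 7.92, 7.88, 7.87 and 7.94 without IL4 and 9.64, 9.76, 9.64 and 9.67 with it. All treated libraries were well above all untreated ones, at 3.42-fold (log2 1.77 ± 0.04, adjusted p = 7.58e-15). Cd36, the scavenger receptor for oxidized LDL and long-chain fatty acids, stood at 11.82, 11.86, 11.86 and 11.84 without IL4 and 13.54, 13.62, 13.58 and 13.56 with it. No value of one group came near the other, the change was 1.73 ± 0.02, and the mean of its 8 libraries, IL4-treated ones included, lay at percentile 93.2 of the genes tested per kilobase of exon. Cxcl14, a chemokine, had values of 9.73, 9.73, 9.63 and 9.75 without IL4 and 11.16, 11.19, 11.17 and 11.15 with it, a change of 1.46 ± 0.03 with no overlap. Igf1, the insulin-like growth factor, was measured at 10.49, 10.52, 10.39 and 10.39 without IL4 and 11.82, 11.80, 11.84 and 11.76 with it, and its treated values were likewise all higher (1.36 ± 0.03).

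The other members of the 15 largest increases rose by 1.13 to 1.33. They were Angptl2, a secreted angiopoietin-like protein (1.33), Mrc1, the mannose receptor (1.32), Slc7a8, a transporter of neutral amino acids (1.28), Slc37a2, a sugar phosphate transporter (1.25), Adgre1, which encodes the macrophage antigen F4/80 (1.24), Itgav, the integrin alpha V chain (1.14), and Skil, a repressor of SMAD proteins (1.13). In each of them the lowest treated library was above the highest untreated one. For Mrc1, the weakest of the 15 by the mean of the 8 libraries per kilobase (percentile 15.6), the libraries gave 5.55, 5.51, 5.51 and 5.49 without IL4 and 6.82, 6.91, 6.84 and 6.76 with it, so that even the spread of the treated group was a small part of the gap.

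**Figure D2:**
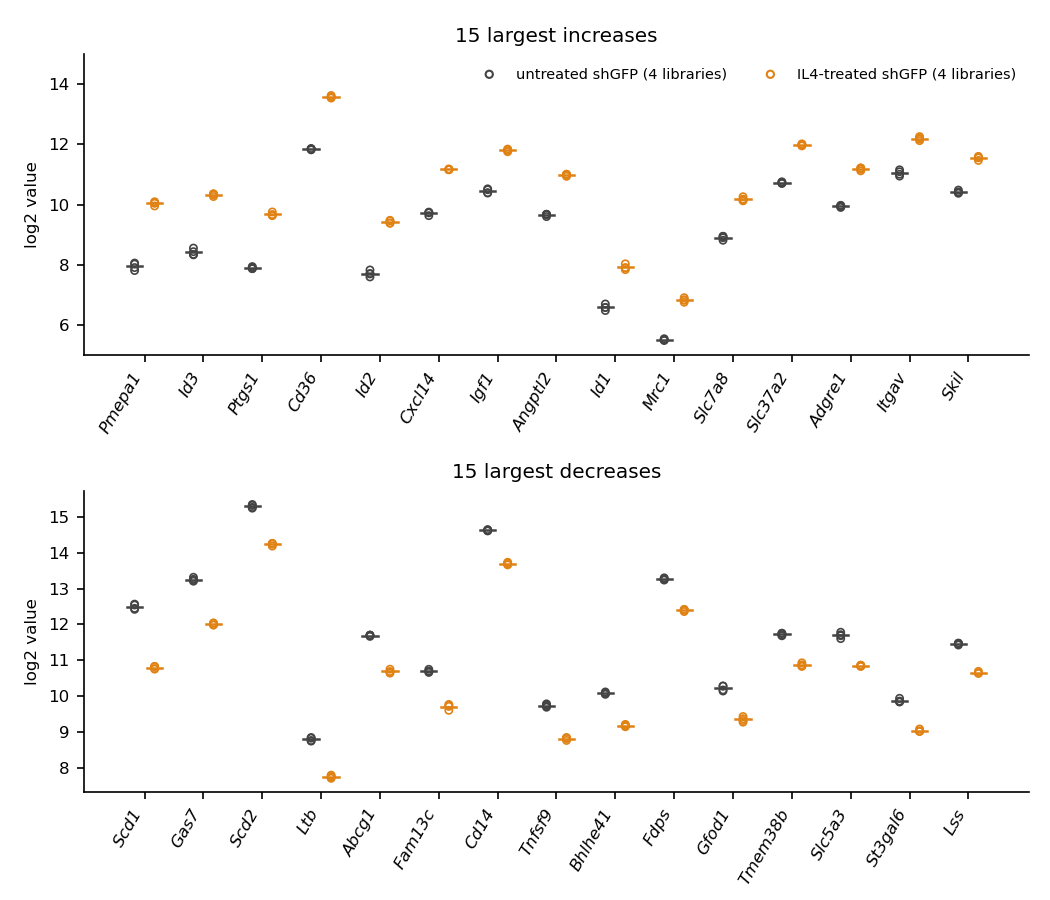
Log2 values of the 15 largest increases (upper panel) and 15 largest decreases (lower panel) in 4 untreated (grey) and 4 IL4-treated (orange) shGFP libraries, with lines at the group means. The 2 groups do not overlap for any of the 30 genes, which were picked for their large changes, and for 28.3% of all genes tested. The untreated values of Pmepa1 and Id3 scatter more than those of Cd36.

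Scd1, which encodes the stearoyl-CoA desaturase that makes monounsaturated fatty acids, fell most. Its values were 12.45, 12.54, 12.57 and 12.42 without IL4 and 10.83, 10.83, 10.75 and 10.77 with it. Every treated library lay far below every untreated one, and the change was -1.70 ± 0.04, which left 0.31 of the untreated level (adjusted p = 2.99e-14). Its neighbour and paralogue Scd2 was measured at 15.26, 15.34, 15.31 and 15.24 without IL4 and 14.23, 14.26, 14.18 and 14.25 with it and fell by 1.06 ± 0.03, and the mean of its 8 libraries lay at percentile 97.9 per kilobase. Any reads that match both of these desaturase genes would be split between them in a way that is not known here. Gas7, a membrane-binding protein of the actin cytoskeleton, had values of 13.22, 13.26, 13.31 and 13.20 without IL4 and 11.99, 12.04, 11.98 and 12.03 with it, all lower after IL4 (-1.24 ± 0.03). Ltb, a membrane cytokine of the TNF family, and Abcg1, the exporter of cholesterol to HDL, fell by 1.04 ± 0.04 and 1.0 ± 0.02.

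Cd14, the lipopolysaccharide coreceptor, was measured at 14.60, 14.64, 14.61 and 14.63 without IL4 and 13.73, 13.68, 13.66 and 13.71 with it. The groups were clearly apart, with a change of -0.93 ± 0.02 in a gene whose mean over the 8 libraries lay at percentile 99.1 per kilobase. The remaining members of the 15 largest decreases fell by 0.80 to 0.99. They were Fam13c, Tnfsf9, a ligand that costimulates T cells (-0.92), Bhlhe41, a repressor of the clock family (-0.90), Fdps and Lss, both enzymes of sterol synthesis, Gfod1, Tmem38b, an ion channel of the endoplasmic reticulum (-0.85), Slc5a3, an inositol transporter (-0.85), and St3gal6, a sialyltransferase (-0.83). Counting did not use the strand. By the GENCODE annotation of the same build, 29.8% of the exon bases of Fam13c (-0.99) are also exon of Phyhipl on the other strand, which itself had a change of -0.77, and 26.4% of those of St3gal6 lie under Dcbld2. The reads of these stretches cannot be told apart from the table. Among tested genes named further on, the part shared with a single other gene reaches 30.5% of the exon bases of Il2rg, 21.3% of those of Ccnd1, 18.3% of Cxcl16, 15.6% of Slc16a3 and 15.3% of Ptger4, and Tgm2 shares 13.7% and 8.0% with a pair of genes. Slc5a3 shares 6.4% of its exon bases with Mrps6 on the same strand, which are 43.8% of those of Mrps6 (-0.70).

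Of 25 genes listed for the IL4 receptor, JAK-STAT signalling and its feedback, 22 were tested, 7 rose and 4 fell (50.0% called, against 26.9% of all genes tested), with a median change of 0.03 against -0.0005 over all genes tested. No receptor chain was called higher. Il4ra, the IL4-binding chain, was measured at 5.67, 5.71, 5.62 and 5.73 without IL4 and 5.70, 5.75, 5.71 and 5.80 with it, which overlapped and did not pass the test (adjusted p = 0.23), and its partners Il2rg and Il13ra1 fell by 0.13 and 0.20. Of the Janus kinases, Jak2 rose by 0.55 ± 0.05 and Jak3 by 0.17 ± 0.03, while Jak1 and Tyk2 had changes of 0.02 and -0.03 that did not pass. Stat6 itself rose by 0.08 ± 0.02, a 1.06-fold change, and Stat3 and Stat5b fell by 0.09 and 0.11. Among the feedback inhibitors, Socs1, which blocks Janus kinases, had values of 5.80, 5.77, 5.77 and 5.86 without IL4 and 6.50, 6.53, 6.60 and 6.39 with it, with all treated libraries higher (0.70 ± 0.05, adjusted p = 3.03e-08). Cish, an inhibitor of STAT5 signalling, was measured at 3.97, 3.96, 3.95 and 3.96 without IL4 and 4.38, 4.31, 4.30 and 4.37 with it, and its groups did not overlap either (0.38 ± 0.02). Socs3 had a change of 0.07 ± 0.06 that did not pass, and the phosphatases Ptpn1 and Ptpn6 rose by 0.10 and 0.11. The call of Stat6 was lost without treated replicate 4 (0.07, adjusted p = 0.0587) and without untreated replicates 1 and 4 together (0.07), which also ended that of Stat5b (-0.10), and that of Ptpn1 without untreated replicate 2 or 3 or treated replicate 2 or 4 (0.07 to 0.10). No call was made for Stat5a, Ptpn2, Ptpn11, Pias1, Pik3r1 or Akt1, whose changes ran from -0.01 to 0.03. Irs1, Irs2 and Socs2 were not tested, their highest value in any shGFP library being 0 or less.

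The promoter of Cish was chosen after the values were seen and is shown because it holds 2 STAT-type sites with a gap of 3 bases close together at the annotated start. It is the RefSeq window of 250 bases before to 50 after the start (GRCm38.p6, chr9:107296409-107296708, plus strand), with TTCNNNGAA in capitals:
Cish: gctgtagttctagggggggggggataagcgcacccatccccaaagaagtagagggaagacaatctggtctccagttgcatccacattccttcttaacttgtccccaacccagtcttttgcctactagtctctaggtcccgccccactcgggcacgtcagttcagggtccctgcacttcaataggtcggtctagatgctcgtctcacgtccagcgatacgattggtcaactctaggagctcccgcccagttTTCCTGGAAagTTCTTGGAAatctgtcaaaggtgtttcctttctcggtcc
The first site begins at position 0 and the second at position 11 relative to the annotated start. Either strand gives the same letters for this motif, which 8.24% of the 10022 tested genes with a window held. Windows of 20 of the 22 tested signalling genes were found, and 2 held it, those of Cish and Socs3, while none of the 20 held the 4-base form.

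Among 30 markers of alternative activation, 16 were tested, of which 13 rose (81.2%, against 13.1% of all genes tested), none fell, and the median change was 0.21. Ptgs1 and Mrc1 led them, followed by lectin, enzyme and receptor genes. Clec7a, the beta-glucan receptor Dectin-1, had values of 8.42, 8.37, 8.26 and 8.44 without IL4 and 9.15, 9.19, 9.33 and 9.37 with it. Its treated libraries were all higher (0.89 ± 0.05, 1.85-fold). Flt1, a VEGF receptor, was measured at 9.32, 9.37, 9.29 and 9.34 without IL4 and 10.08, 10.09, 10.09 and 10.05 with it, again without overlap (0.75 ± 0.05). Il4i1, a secreted amino acid oxidase, and Tgm2, a transglutaminase, rose by 0.56 ± 0.04 and 0.49 ± 0.03, and Tmem26 by 0.35 ± 0.03.

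Further markers called higher were Mgl2 (0.17 ± 0.03), a galactose-type lectin that shares its family with the neighbouring Clec10a (0.01, not called), Matk (0.16), Slc7a2 (0.15), an arginine transporter, and Pdcd1lg2 (0.06), the checkpoint ligand PD-L2, whose call was lost without untreated replicates 1 and 4 (0.06, adjusted p = 0.0654). Msr1, the class A scavenger receptor, rose by 0.09 ± 0.02. Vwf (-0.03) and Mmp12 (0.03) did not pass. The other 14 markers were not tested because no shGFP library exceeded 0.76. They include Retnla, Chil3, Fn1, Cdh1, Cd163, Cd209e and Ear11 (named Rnase2a in the table), which are listed at 0 in every shGFP library, and Chil4, Ccl17, Ccl22, Ccl24, Ch25h, Alox15 and Ms4a4a.

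Among the 15 largest increases, 11 had a RefSeq promoter window and that of Cd36 alone held TTC and GAA 4 bases apart (GRCm38.p6, chr5:17835847-17836146, minus strand, motif in capitals, beginning at position 20 after the start), for which it is printed, so its letters are not typical of the group:
Cd36: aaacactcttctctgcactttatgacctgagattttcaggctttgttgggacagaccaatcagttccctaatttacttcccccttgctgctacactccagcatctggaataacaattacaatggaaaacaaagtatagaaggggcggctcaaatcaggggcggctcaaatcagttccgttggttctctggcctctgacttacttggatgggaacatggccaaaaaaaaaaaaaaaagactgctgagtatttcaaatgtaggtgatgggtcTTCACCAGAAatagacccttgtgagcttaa
Windows holding this motif were 8 of 80 (10.0%) for genes raised by more than 0.5, 3 of 52 (5.77%) for genes lowered by more than 0.5, and 6.71% for all tested genes with a window. Over all genes called higher and lower the shares were 7.12% and 7.24%. Among 10 alternative activation markers with a window, Clec7a, Pdcd1lg2 and Tmem26 held it. So did 6 of 30 windows (20.0%) of interferon-stimulated genes, a list given below in which no gene was called higher. With a gap of 3 bases in place of 4, the shares for the large increases and decreases were 7.5% and 11.54%, so the order depended on the gap. RefSeq windows were matched by symbol, and a match describes the letters only.

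Of the 28 transcription factors listed for the IL4 response, 27 were tested, 15 rose and 2 fell (63.0% called, against 26.9% of all genes tested), with a median change of 0.19. After the Id genes the largest increase was that of Egr2, a zinc finger factor known to be induced by IL4 in macrophages, with values of 7.02, 6.97, 6.98 and 6.97 without IL4 and 8.00, 7.87, 7.94 and 7.76 with it. Its treated libraries were all higher, by 0.91 ± 0.05 (1.87-fold). Bhlhe40 and Myc rose by 0.55 ± 0.03 and 0.54 ± 0.05, Nfil3 by 0.48, Irf4 by 0.45, Mitf by 0.42, Gata3 by 0.37, Junb by 0.35 and Klf4 by 0.33. Bhlhe41 and Egr1 fell, by 0.90 ± 0.05 and 0.20 ± 0.03. Bhlhe40 and Bhlhe41, close relatives that repress through the same DNA element, thus moved in opposite directions. Pparg and Rxra, nuclear receptors of alternative activation, had changes of 0.04 and 0.06 and did not pass.

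Several of the largest changes belong to TGF-beta and BMP signalling, in which receptor kinases activate SMAD proteins. A list of 43 such genes was therefore added after the values had been seen, so its counts describe what was noticed and carry no weight as evidence for the pathway. Of 34 tested, 18 rose and 2 fell (58.8% called, against 26.9% of all genes tested). Among receptors, Tgfbr1 rose and Tgfbr2, its partner, fell. Tgfbr1 was measured at 10.03, 10.14, 10.20 and 10.03 without IL4 and 11.03, 11.13, 11.12 and 11.06 with it (0.99 ± 0.04) and Tgfbr2 at 12.25, 12.27, 12.27 and 12.29 without IL4 and 11.82, 11.82, 11.76 and 11.82 with it (-0.47 ± 0.03). Neither had overlapping groups. Acvrl1 and Eng, receptors of BMP9, rose by 0.29 and 0.32, and Bmpr1a fell by 0.24. The inhibitory Smad6 and Smad7 rose by 0.85 ± 0.05 and 0.58 ± 0.05, with Skil and Ski (0.46), whereas the signal-carrying Smad1, Smad2, Smad3, Smad4 and Smad5 had changes between -0.08 and 0.06 and none passed. The ligand Tgfb1 did not pass (0.03 ± 0.02). Itgav and Itgb5, which form an integrin that binds latent TGF-beta, rose by 1.14 and 1.11. Bambi, a pseudoreceptor, had a change of -0.0020.

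**Figure D3:**
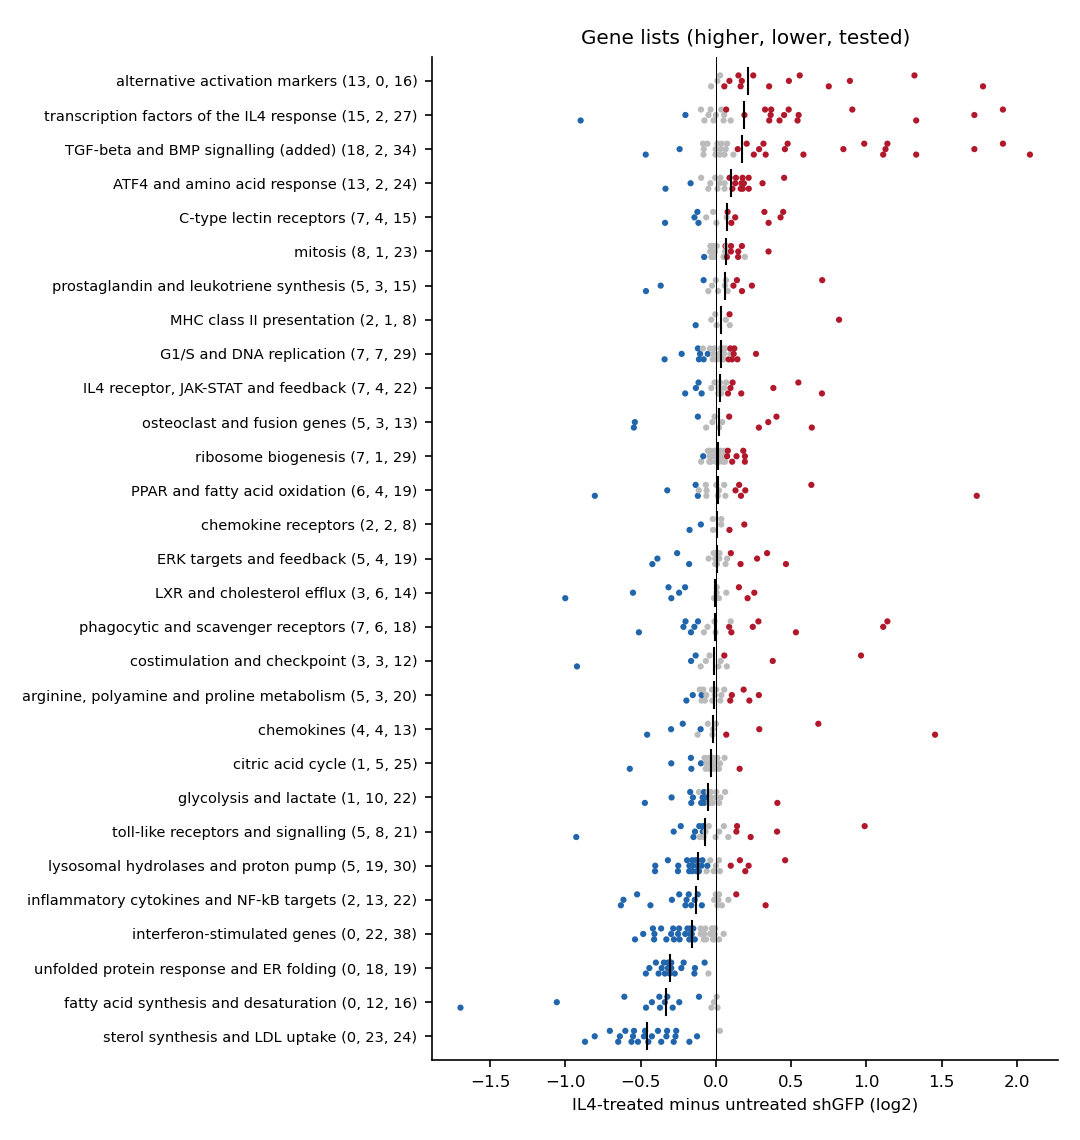
Log2 fold changes of the tested members of the 28 gene lists and the added list, 1 point per gene, red where called higher, blue where called lower and grey where not called, with a black bar at the list's median and the numbers called higher, called lower and tested after its name. Sterol synthesis has the lowest median, at -0.46, with 23 of 24 members called lower, and alternative activation markers have the highest.

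Sterol synthesis genes fell almost without exception. Of 24 tested genes of cholesterol synthesis and LDL uptake, 23 fell (95.8%, against 13.7% of all genes tested) and none rose, with a median change of -0.46. At the start of the pathway, Acat2, which joins acetyl-CoA units, fell by 0.52. The kinases and the decarboxylase of mevalonate, Mvk, Pmvk and Mvd, fell by 0.36, 0.55 and 0.64, and Idi1 by 0.45. Fdps, farnesyl diphosphate synthase, fell most, with values of 13.27, 13.24, 13.25 and 13.30 without IL4 and 12.42, 12.39, 12.41 and 12.36 with it (-0.87 ± 0.03, adjusted p = 8.36e-13). Past the branch to sterols, Fdft1, of whose exon bases 26.9% are also exon of Ctsb on the other strand, and Sqle fell by 0.47 and 0.27, Lss, which closes the sterol rings, by 0.80 ± 0.02, and Cyp51, Nsdhl, Sc5d and Dhcr7 by 0.56, 0.65, 0.54 and 0.60. The regulators fell as well. Insig1, the sterol sensor of the endoplasmic reticulum, was measured at 11.29, 11.19, 11.29 and 11.27 without IL4 and 10.60, 10.52, 10.51 and 10.61 with it (-0.70 ± 0.03), and Srebf2, the master regulator of the pathway, fell by 0.32 ± 0.02. Hmgcs1, HMG-CoA synthase, was the exception, with values of 6.40, 6.39, 6.37 and 6.32 without IL4 and 6.86, 6.24, 6.12 and 6.37 with it that overlapped (0.03 ± 0.17, adjusted p = 0.94).

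Fatty acid synthesis and desaturation showed the same direction, with 12 of 16 genes lower (75.0%, against 13.7% of all genes tested), none higher, and a median of -0.33. Beside the stearoyl-CoA desaturases, the desaturases of polyunsaturated fatty acids Fads2 and Fads1 fell by 0.61 ± 0.02 and 0.34 ± 0.02, the elongases Elovl6 and Elovl5 by 0.42 and 0.38, and Acly, which supplies cytosolic acetyl-CoA, by 0.46 ± 0.03. Srebf1, which drives this pathway, fell by 0.37 ± 0.02. Fasn, fatty acid synthase, had values of 13.14, 13.29, 13.13 and 13.12 without IL4 and 13.15, 13.18, 13.20 and 13.10 with it, which overlapped and did not pass (-0.01 ± 0.07), and Elovl1, Acacb and Insig2 were not called either.

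Genes of cholesterol efflux were divided, with 6 lower and 3 higher of 14 (64.3% called, against 26.9% of all genes tested). Abcg1 was measured at 11.70, 11.70, 11.70 and 11.67 without IL4 and 10.75, 10.69, 10.64 and 10.68 with it, so that all its treated libraries were lower, and the other exporter, Abca1, fell by 0.30 ± 0.04. Scarb1, the HDL receptor, fell by 0.55 ± 0.03. Npc1, which exports lysosomal cholesterol, and Nr1h3, the oxysterol receptor LXR alpha, rose by 0.26 and 0.21, and Soat1, which esterifies cholesterol, by 0.15. Apoe had a change of 0.01 that did not pass. Of 19 tested genes of PPAR signalling and fatty acid oxidation, 6 rose and 4 fell (52.6% called). Cpt1a, the carnitine transferase that admits fatty acids to mitochondria, had values of 9.65, 9.67, 9.67 and 9.59 without IL4 and 10.25, 10.28, 10.28 and 10.30 with it and rose by 0.63 ± 0.02, and Fabp5, a fatty acid-binding protein, was measured at 10.40, 10.42, 10.45 and 10.45 without IL4 and 9.73, 9.60, 9.56 and 9.61 with it, all lower after treatment (-0.80 ± 0.04). Ppard and Plin2 fell by 0.32 and 0.12.

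Chaperones and folding enzymes of the endoplasmic reticulum fell in 18 of 19 cases (94.7%, against 13.7% of all genes tested), with a median change of -0.31. Hspa5, the chaperone BiP, had values of 15.02, 15.03, 14.99 and 15.05 without IL4 and 14.64, 14.63, 14.62 and 14.67 with it. The groups were well apart although the change was moderate (-0.38 ± 0.02, adjusted p = 3.82e-10). Herpud1 and Sdf2l1, both induced by unfolded proteins, fell by 0.46 ± 0.04 and 0.44 ± 0.04, the disulphide isomerase Pdia6 by 0.40, and Xbp1, a transcription factor of the response, by 0.30 ± 0.03. Only Sel1l did not pass (-0.05 ± 0.03).

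The promoter window of Hspa5 is printed because 8 of the 17 members with a window (47.06%) share one motif, CCAAT and CCACG set 9 bases apart on either strand, the form known as the endoplasmic reticulum stress element, which 0.15% of all tested genes with a window held (GRCm38.p6, chr2:34771840-34772139, plus strand, motif in capitals, at position -65):
Hspa5: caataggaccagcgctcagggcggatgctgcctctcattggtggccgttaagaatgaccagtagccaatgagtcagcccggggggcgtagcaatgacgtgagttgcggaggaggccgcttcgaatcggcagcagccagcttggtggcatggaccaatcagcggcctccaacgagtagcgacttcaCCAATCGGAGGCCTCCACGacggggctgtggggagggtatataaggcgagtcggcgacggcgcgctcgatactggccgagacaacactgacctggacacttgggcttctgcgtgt
The other 7 are Calr, Canx, Creld2, Dnajc3, Hsp90b1, Pdia6 and Syvn1. All 8 genes fell, by 0.07 for Syvn1 up to 0.40 for Pdia6, as did 18 of the 19 list members with or without the motif. A link between the motif and the decrease was not tested. The call of Syvn1 was lost without untreated replicate 2 or 4 or treated replicate 2 (-0.06 to -0.07) and without untreated replicates 1 and 4 (-0.08). The motif was looked for after the values were known.

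Of 30 lysosomal genes 19 fell and 5 rose, where 13.7% of all genes tested fell and 13.1% rose, with a median of -0.12. Gla, Ctsb and Ctsd, an alpha-galactosidase and a pair of cathepsins, fell by 0.40, 0.40 and 0.32, while Ctsc and Lipa, the acid lipase, rose by 0.22 and 0.20. Of the exon bases of Ctsb, 16.2% are also exon of Fdft1 on the other strand, so part of its value may belong to that partner.

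Of 22 tested inflammatory cytokines and NF-kB targets, 13 fell and 2 rose, where 13.7% of all genes tested fell and 13.1% rose, with a median of -0.13. Tnf, measured at 10.26, 10.13, 10.16 and 10.20 without IL4 and 9.63, 9.48, 9.49 and 9.64 with it, fell by 0.63 ± 0.04 with no overlap. Traf1, an adaptor of TNF receptors, and Il1rn, the IL1 receptor antagonist, fell by 0.61 ± 0.04 and 0.52 ± 0.04. Nfkb1 and Il18 rose, by 0.33 ± 0.02 and 0.14 ± 0.05, but the call of Il18 was lost when any 1 shGFP library other than treated replicate 2 was left out (0.11 to 0.15), and without untreated replicates 1 and 4 (0.16). Il1a, Il1b, Il6, Il10 and 5 others of the 31 listed stayed under 1 in every shGFP library and were not tested. In the Toll-like receptor list, 8 of 21 fell and 5 rose (61.9% called, against 26.9% of all genes tested). Cd14 and Tlr7, a receptor for single-stranded RNA, fell, the latter by 0.28 ± 0.03, with Irak2 (-0.23), whereas Tlr8, also an endosomal RNA receptor, had values of 6.32, 6.47, 6.30 and 6.32 without IL4 and 7.31, 7.33, 7.45 and 7.27 with it and rose by 0.99 ± 0.05. Tlr9 and Tlr4 rose by 0.41 and 0.23.

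Interferon-stimulated genes were lower in 22 of 38 (57.9%, against 13.7% of all genes tested) and higher in none, with a median of -0.16. Rtp4 had values of 9.49, 9.41, 9.38 and 9.37 without IL4 and 8.87, 8.88, 8.79 and 8.98 with it, all lower with IL4 (-0.54 ± 0.04). Ifi44 fell by 0.48 ± 0.03 and Irgm1, a GTPase of cell-autonomous immunity, by 0.42 ± 0.04. Irf8, a factor of macrophage identity, fell by 0.36 ± 0.03. Mx1, Isg15, Irf7 and Gbp2 are among the 16 that did not pass, with changes of -0.01, -0.10, -0.06 and 0.02. Without untreated replicate 2 Isg15 passed (-0.14, adjusted p = 0.0328), and without replicate 1 of either group Irf7 did (-0.08). Irgm1 is one of 17 members, of 30 with a window (56.67%), whose promoter holds GAAANNGAAA on either strand, the core of the interferon-stimulated response element, against 3.89% of all tested genes with a window (GRCm38.p6, chr11:48871371-48871670, minus strand, 2 overlapping copies in capitals, the first at position -30):
Irgm1: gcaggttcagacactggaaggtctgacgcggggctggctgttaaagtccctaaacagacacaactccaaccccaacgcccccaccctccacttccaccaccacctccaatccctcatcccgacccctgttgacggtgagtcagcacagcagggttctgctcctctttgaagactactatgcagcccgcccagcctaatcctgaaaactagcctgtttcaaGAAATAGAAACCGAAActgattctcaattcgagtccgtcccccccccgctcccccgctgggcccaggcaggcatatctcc
Among all genes called lower 5.83% of windows held it, and among those called higher 2.54%. The order was not the same for changes beyond 0.5, where 1 of 52 windows of lowered genes (1.92%) and 2 of 80 of raised genes (2.5%) held it. This motif, too, was looked for after the values were known.

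Chemokines moved both ways, 4 higher and 4 lower of 13 (61.5% called, against 26.9% of all genes tested). Cxcl14 and Ccl2, a monocyte attractant measured at 7.06, 7.18, 7.14 and 7.05 without IL4 and 7.70, 7.78, 7.84 and 7.83 with it, rose, the latter by 0.68 ± 0.04, and Cxcl16 by 0.29, while Ccl9, Ccl3 and Cxcl10 fell by 0.46 ± 0.02, 0.30 ± 0.03 and 0.22 ± 0.05. Of 8 tested chemokine receptors 4 were called (50.0%). Cxcr4 and Ccr2 rose by 0.19 and 0.09, and Cx3cr1 and Ccrl2 fell by 0.17 and 0.10. Without untreated replicates 1 and 4 together the calls of Cxcl10 (-0.16, adjusted p = 0.0977), Ccrl2 (-0.08) and Ccr2 (0.05) were lost. The call of Ccr2 was also lost without untreated replicate 1 or 4 or treated replicate 1, 2 or 4 (0.07 to 0.09). Among 15 tested C-type lectin receptors 7 rose and 4 fell (73.3% called), in a list without Clec7a, Mrc1 and Mgl2, which were counted above. Within it the largest increases were those of Clec4a3 (0.45 ± 0.04), Olr1, which binds oxidized LDL (0.43 ± 0.04), and Clec4a2 (0.35). Clec4d was at -0.34, Cd302 at -0.14 and Clec12a at -0.12. Clec4a2 and Clec4a3 are relatives and could share reads, which was not measured here.

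Prostaglandin and leukotriene genes were divided, with 5 of 15 higher and 3 lower (53.3% called, against 26.9% of all genes tested). Ptgs2, the inducible cyclooxygenase 2, had values of 8.30, 8.33, 8.32 and 8.27 without IL4 and 9.12, 8.94, 8.99 and 9.01 with it and rose by 0.71 ± 0.04, so both cyclooxygenases increased. Tbxas1, thromboxane synthase, rose by 0.24 and Ptger4, a receptor of prostaglandin E2, by 0.17, whereas Alox5, which starts leukotriene synthesis, fell by 0.46 ± 0.04, Hpgds, a prostaglandin D synthase, by 0.37 ± 0.03, and Hpgd, which inactivates prostaglandins, by 0.08. Without untreated replicate 1 only 5 of these genes were called in either direction, the call of Hpgd (-0.06) and that of Ptger4 (0.14) being among those lost. Hpgd also lost it without untreated replicate 4 or treated replicate 3, and Ptger4 without treated replicate 4, and both without untreated replicates 1 and 4 (-0.04 and 0.12).

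Receptors of phagocytosis gave 7 increases and 6 decreases among 18 (72.2% called, against 26.9% of all genes tested). Stab1, a scavenger receptor, rose by 0.53 ± 0.04 beside both integrin chains, and Gas6, a bridge to dying cells, Tyrobp and Fcer1g, adaptors of activating receptors, fell by 0.51, 0.22 and 0.20. Of 8 tested genes of MHC class II presentation 3 were called (37.5%). Cd74, the invariant chain, had values of 11.67, 11.70, 11.70 and 11.73 without IL4 and 12.52, 12.49, 12.55 and 12.50 with it and rose by 0.82 ± 0.03, Ifi30 rose by 0.09, and Cd80 fell by 0.13. H2-Ab1 had a change of -0.0035 that did not pass, and H2-Aa, H2-Eb1, Ciita and 3 others of the 14 listed were not tested because their values stayed under 1. Without untreated replicate 3 or treated replicate 2 Cd74 alone of these genes was called. Ifi30 lost its call without untreated replicate 1, 2 or 3 or treated replicate 2 (0.08 to 0.09), and Cd80 without untreated replicate 3 or 4 or treated replicate 2, 3 or 4 (-0.09 to -0.14). In the costimulation list, 3 of 12 rose and 3 fell (50.0% called). Havcr2, the inhibitory receptor TIM-3, was measured at 9.50, 9.35, 9.44 and 9.51 without IL4 and 10.41, 10.38, 10.47 and 10.39 with it, all higher with IL4 (0.96 ± 0.04), Cd274, which encodes PD-L1, rose by 0.38 ± 0.04, and Tnfsf9 and Lgals9 fell. Among osteoclast and fusion genes 5 of 13 rose and 3 fell (61.5% called). Nfatc1, the master regulator of osteoclasts, rose by 0.64 ± 0.03, Tnfrsf11a, the receptor RANK, by 0.40 and Acp5 by 0.35, while Dcstamp, needed for cell fusion, fell by 0.54 ± 0.03 and Car2 by 0.54 ± 0.03.

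Glycolysis had 10 of 22 lower and 1 higher (50.0% called), with a median of -0.05, and 7 in place of 11 were called after quantile normalization. Aldoc, Hk3 and Slc16a3, a lactate exporter, fell by 0.47, 0.29 and 0.17, and Hk1 rose by 0.41 ± 0.02. In the citric acid cycle 5 of 25 fell and 1 rose, a share of 24.0% called that is below the 26.9% of all genes. Idh1, the cytosolic isocitrate dehydrogenase, fell by 0.57 ± 0.03 and Ogdh rose by 0.16. Of 20 genes of arginine, polyamine and proline metabolism 5 rose and 3 fell (40.0% called). Ass1, which makes argininosuccinate, rose by 0.29 ± 0.03, Aldh18a1 and Pycr1, enzymes of proline synthesis, by 0.22 and 0.18, and Oat and Oaz1 fell by 0.20 and 0.15.

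Of 29 tested ribosome biogenesis genes, 7 rose and 1 fell, and their 27.6% called was close to the 26.9% of all genes. Of 29 genes of G1/S and replication, 7 rose and 7 fell (48.3% called), with E2f2 at 0.27 and Cdk6, Ccnd1 and Cdc6 at -0.34, -0.23 and -0.12. Of 23 mitotic genes, 8 rose and 1 fell (39.1% called), led by Mki67 at 0.35 ± 0.09, whose call was lost without untreated replicates 1 and 4 (0.29, adjusted p = 0.115). Among ERK targets, 5 of 19 rose and 4 fell (47.4% called). The immediate early gene Fos rose by 0.34 ± 0.03, and the ERK phosphatases parted, with Dusp4 higher by 0.47 ± 0.03 and Dusp6 lower by 0.42 ± 0.04.

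Of 24 tested genes of amino acid supply and stress controlled by the transcription factor ATF4, 13 rose in shGFP cells, 2 fell and 9 were not called (62.5% called, against 26.9% of all genes tested, median 0.10). Asns, asparagine synthetase, had values of 11.22, 11.24, 11.21 and 11.21 without IL4 and 11.62, 11.72, 11.64 and 11.71 with it. All treated libraries were higher (0.45 ± 0.02, adjusted p = 3.61e-10). Slc3a2 and Slc7a5, the chains of a transporter of large neutral amino acids, rose by 0.31 ± 0.02 and 0.22 ± 0.02, and the tRNA synthetases Gars, Nars and Aars by 0.22, 0.17 and 0.09. Atf4 itself fell, from 12.50, 12.52, 12.53 and 12.58 to 12.18, 12.20, 12.24 and 12.17 (-0.33 ± 0.03), as did Ddit3 (-0.17), whose call was lost without untreated replicates 1 and 4 (-0.15, adjusted p = 0.108). Pck2 and Aldh1l2, mitochondrial enzymes outside the list that are named for their difference between the lines, rose more. Pck2 was measured at 9.61, 9.57, 9.56 and 9.71 without IL4 and 10.49, 10.42, 10.49 and 10.48 with it (0.85 ± 0.03) and Aldh1l2 at 8.24, 8.40, 8.39 and 8.26 without IL4 and 9.27, 9.26, 9.18 and 9.15 with it (0.89 ± 0.05), both without overlap.

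The Asns window is printed for its amino acid response element, TGATGNAA on either strand, which 7 of 20 members with a window held (35.0%), against 2.9% of all tested genes with a window (GRCm38.p6, chr6:7693160-7693459, minus strand, motif in capitals, at position -23, chosen after the values were known):
Asns: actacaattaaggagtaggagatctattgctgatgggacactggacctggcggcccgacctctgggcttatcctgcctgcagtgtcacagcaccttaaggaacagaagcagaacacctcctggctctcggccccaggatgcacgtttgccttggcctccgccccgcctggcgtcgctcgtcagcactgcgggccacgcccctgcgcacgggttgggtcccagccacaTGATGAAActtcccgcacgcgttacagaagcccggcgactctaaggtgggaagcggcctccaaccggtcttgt
The other 6 are Aars, Chac1, Gars, Nupr1, Slc7a11 and Trib3, of which Slc7a11 alone was not called in shGFP cells (-0.04 ± 0.04).

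The libraries of shKDM1A cells do not enter the fold changes above but share the estimate of the spread behind their tests. Leaving out 1 of them gave 1648 to 1787 genes higher and 1727 to 1832 lower in shGFP cells, and some of these fits ended the shGFP call of Kdm1a, Il18 or Ccr2. In shKDM1A cells 1752 genes (13.6%) rose and 1745 (13.5%) fell with IL4, of which 84 (0.651%) and 57 (0.442%) passed 0.5 and 18 (0.139%) and 3 (0.0232%) passed 1. Of the 3466 genes called in shGFP cells, 2945 (85.0%) changed in the same direction there, and 1863 (53.8%) were called in it, while 65 were called in the opposite one. Over all genes tested, 64.3% had the same sign in both lines. All 21 genes raised and all 5 lowered by more than 1 kept direction and call. Of the 101 raised by more than 0.5, 98 were called higher in shKDM1A cells too and 2, Pck2 and Aldh1l2, were called lower. For these 101 the median change was 0.70 in shGFP and 0.62 in shKDM1A cells, and for the 73 lowered it was -0.62 and -0.54. The difference between the responses passed the test for 791 genes (6.13%), 459 higher (3.56%) and 332 lower (2.57%) in shKDM1A cells. Of these, 4 (0.031%) were higher and 13 (0.101%) lower by more than 0.5, and 1 (0.00775%), Aldh1l2, was lower by more than 1. In these cells replicates 1 and 3 of the IL4-treated group stood apart from replicates 2 and 4 along the third principal component, and without replicates 1 and 3 the difference was called higher for 177 and lower for 171 genes. Leaving out treated shGFP replicate 3 alone gave 300 higher.

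**Figure D4:**
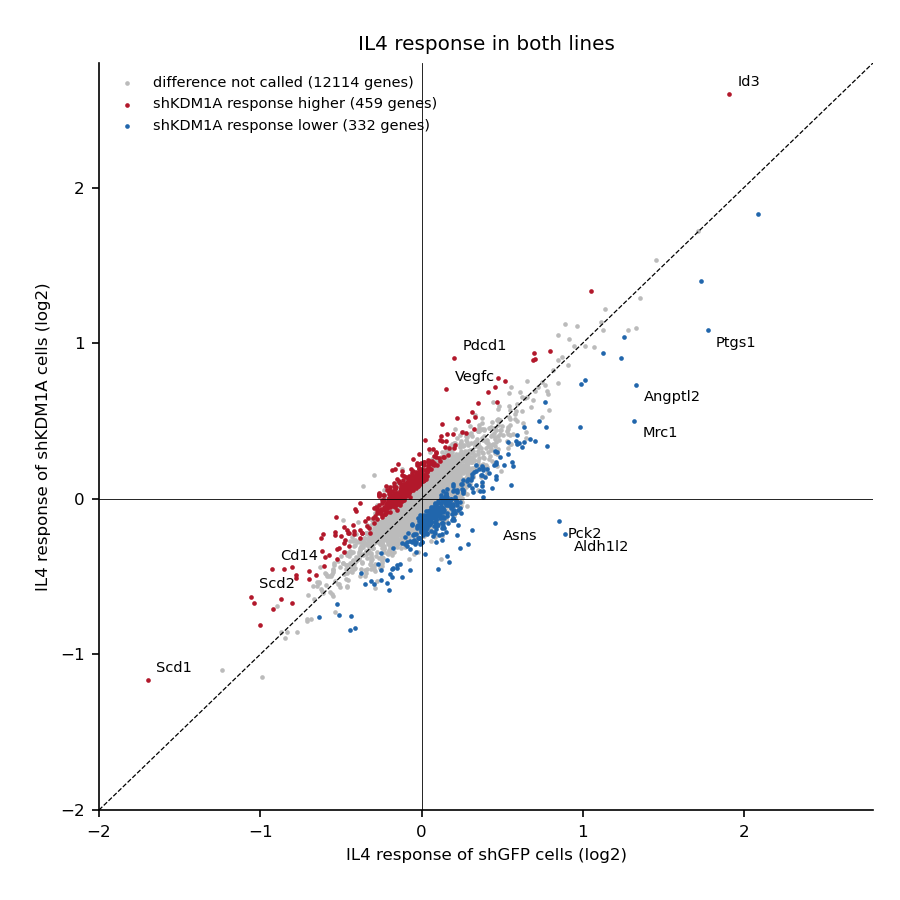
Each point is a gene, with the log2 IL4 response of shGFP cells on the x axis and that of shKDM1A cells on the y axis, and the dashed line marks equal responses. Genes whose difference passed the test are coloured, and those with the largest differences are named, with Id3 above the line and Ptgs1, Mrc1, Angptl2, Asns, Pck2 and Aldh1l2 below it.

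The ATF4 list went the other way in shKDM1A cells, where 15 of 24 fell and 1 rose, with a median of -0.15. Of all genes tested, 13.5% fell and 13.6% rose in these cells. The difference itself was called lower for 14 of the 24 and higher for none, against 2.57% and 3.56% of all genes tested, and again lower for 14 without replicates 1 and 3, where it was lower for 171 of all 12905. Asns rose by 0.45 in shGFP and fell by 0.16 in shKDM1A cells (difference -0.61 ± 0.03, adjusted p = 3.57e-08). Trib3, a feedback inhibitor of ATF4, rose by 0.17 and fell by 0.41, and Chac1 rose by 0.13 and fell by 0.27 (differences -0.58 and -0.39). The call of Chac1 in shGFP cells was lost without untreated replicate 1 or 3 or treated replicate 2 or 4 (0.10 to 0.12), or untreated replicates 1 and 4 (0.12). Pck2 and Aldh1l2 differed by -1.0 ± 0.04 and -1.12 ± 0.07, and these were chosen for their size. The untreated levels differed too. Asns had a mean of 11.22 in untreated shGFP and 11.61 in untreated shKDM1A libraries, and 21 of the 24 genes were higher in the latter, by a median of 0.14. The share of all genes tested that were higher there was not computed. It was 20 of 22 for the glycolysis list and 4 of 29 for ribosome biogenesis. Atf4 fell in both lines, by 0.33 and 0.26.

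**Figure D5:**
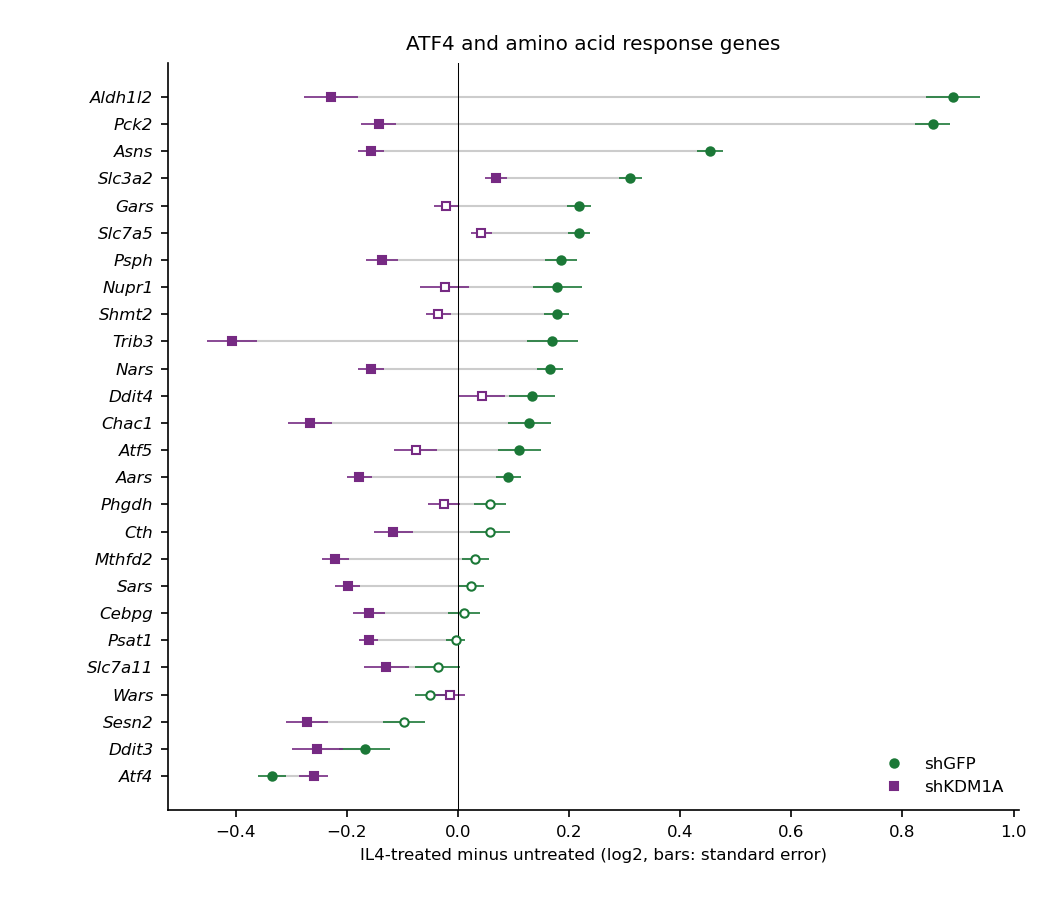
Log2 IL4 response of the 24 tested ATF4 and amino acid response genes and of Pck2 and Aldh1l2 in shGFP (green circles) and shKDM1A cells (purple squares), with standard errors from 4 libraries per group and open symbols where the response was not called. For all but Atf4 and Wars the green point lies to the right of the purple one.

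Several of the largest responses also differed in size. Ptgs1 rose by 1.77 in shGFP and by 1.08 in shKDM1A cells (difference -0.69 ± 0.05, adjusted p = 1.22e-06). Mrc1 rose by 1.32 and 0.50 (difference -0.82 ± 0.05) from untreated means that were alike, 5.51 and 5.50. Angptl2 differed by -0.60. The untreated means of Ptgs1 and Angptl2 were not alike, at 7.90 and 9.66 in shGFP and 6.69 and 10.90 in shKDM1A cells. The reverse held for Id3, which rose by 1.91 and 2.60 (difference 0.69 ± 0.07) from untreated means of 8.42 and 7.42 to treated means of 10.33 and 10.01, and for Pdcd1, which encodes the checkpoint receptor PD-1, and Vegfc, a lymphatic growth factor, which rose by 0.20 and 0.15 in shGFP and by 0.90 and 0.71 in shKDM1A cells (differences 0.70 and 0.55). Scd1, Scd2 and Cd14 fell less in shKDM1A cells, with differences of 0.53, 0.43 and 0.48. Flt1 responded by 0.75 and 0.75, and its difference had a standard error of 0.07 and did not pass. In the sterol list 22 of 24 fell in shKDM1A cells, where 13.5% of all genes tested fell and 13.6% rose, and 2 differences passed, both toward a smaller decrease. In the interferon list 14 of 38 fell and 2 rose, with 10 differences toward a smaller decrease or an increase. Of all genes tested 3.56% had a difference called higher. Without replicates 1 and 3 these were 177 of 12905, and 3 of the 38. All 38 interferon-stimulated genes had higher untreated means in shKDM1A than in shGFP cells, by a median of 0.68. The matching share over all genes tested was not computed. Other lists leaned either way, with 26 of 30 lysosomal and 20 of 22 glycolysis genes higher there, but 4 of 29 for ribosome biogenesis and 5 of 23 for mitosis.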

How the data were processed

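RNA was sequenced from 4 libraries for each of 4 groups of RAW264.7 cells, shGFP and shKDM1A with and without IL4. The deposited values are log2 read counts per gene, which the authors made with HOMER and DESeq2 on mm9 from exons of RefSeq genes on both strands. They are adjusted for library size and moderated, the transformation not being named in the sources used here, and they are not raw counts, so no count model was used. Columns with the authors' own fold changes and p-values were not used, nor was the table of bone marrow-derived macrophages.

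Genes reaching 1 or more in 4 or more of the 16 libraries were fitted with limma 3.58.1 (R 4.3.3) to group means over all 16 libraries, which share 1 estimate of the spread. P-values were adjusted by Benjamini-Hochberg over all 12905 genes, with a threshold of 0.05, and all are two-sided. The steps were tested on simulated data. Depth per library is given by the header totals, 18935438.5 to 25135581.0 tags in shGFP cells, and p-values measure only the spread between libraries.

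Named genes were the 15 largest changes each way, all members of the JAK-STAT and alternative activation lists, up to 3 each way from every other list, the 6 largest differences each way between the lines, and Kdm1a, Gps2, Ptgs1, Mrc1 and Flt1. Some members of these lists are not reported here. Further list members, the markers, the overlapping partner genes and all genes of the TGF-beta and BMP list were added after their values were seen. Members and lists were chosen with earlier results of these data known. One listed ribosome biogenesis gene was not analysed here. Promoter windows came from RefSeq (GRCm38.p6), and exon overlaps from the mm9 annotation. Alternatives were no filter, a mean of at least 5, only the groups compared, trended or robust variance, a replicate block, median centring, quantile normalization, fold limits and leaving out libraries.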

Additional observations from a re-analysis of the deposited data

Results flagged for a closer look

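For 26 of 480 groups of 4 shGFP libraries, 1 library lay so far from the other 3 that its gap as a share of the group's range passed Dixon's critical value, and chance alone flags about 1 in 20 groups. Of these, 14 were untreated and 12 treated groups. Each value below is followed by the range of the other 3 libraries. Untreated replicate 1 had Abca1 below them at 5.88 (5.96 to 5.97), Phyhipl below them at 8.56 (8.72 to 8.74) and Smad4 above them at 10.63 (10.57 to 10.58). Untreated replicate 2 had Ccnd1 above them at 13.91 (13.86 to 13.87), Fasn above them at 13.29 (13.12 to 13.14) and Tlr8 above them at 6.47 (6.30 to 6.32). Untreated replicate 3 had Acat2 above them at 11.10 (10.87 to 10.90), Angptl2 below them at 9.60 (9.67 to 9.68), Jak1 above them at 11.59 (all 11.56), Slc3a2 below them at 11.79 (all 11.85) and Stat6 above them at 12.08 (all 12.03). Untreated replicate 4 had Abcg1 below them at 11.67 (all 11.70), Cd274 below them at 6.45 (6.47 to 6.48) and Ifi30 above them at 13.03 (12.94 to 12.96). IL4-treated replicate 1 had Klf4 below them at 9.23 (9.35 to 9.37) and Npc1 below them at 10.87 (10.92 to 10.93). IL4-treated replicate 2 had Jak2 above them at 9.67 (9.52 to 9.53), Pparg below them at 5.62 (5.72 to 5.73) and Sdf2l1 above them at 11.44 (11.38 to 11.39). IL4-treated replicate 3 had Cxcr4 above them at 6.77 (6.74 to 6.75), Jak3 above them at 8.39 (8.27 to 8.29), Junb below them at 12.08 (12.12 to 12.13), Smad6 above them at 7.96 (7.85 to 7.87), Tgfbr2 below them at 11.76 (all 11.82) and Trib3 below them at 6.60 (6.70 to 6.72). IL4-treated replicate 4 had Clec4a3 above them at 7.72 (7.67 to 7.68).

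Among the genes named in the comparison, the IL4 response differed between the lines for 14, by a test of the difference itself at an adjusted p under 0.05. The values are differences of log2 fold changes, shKDM1A minus shGFP, first with all libraries and then without replicates 1 and 3 of IL4-treated shKDM1A cells, which stood apart. The response was lower in shKDM1A cells for Aldh1l2 (-1.12 and -1.06), Pck2 (-1.0 and -1.02), Mrc1 (-0.82 and -0.83), Ptgs1 (-0.69 and -0.71), Asns (-0.61 and -0.64), Angptl2 (-0.60 and -0.55), Trib3 (-0.58 and -0.58) and Chac1 (-0.39 and -0.41). It was higher for Pdcd1 (0.70 and 0.70), Id3 (0.69 and 0.68), Vegfc (0.55 and 0.52), Scd1 (0.53 and 0.60), Cd14 (0.48 and 0.44) and Scd2 (0.43 and 0.49). All of them passed the test in both fits, and 12 of them had been selected as the largest such differences.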

How the results depend on the processing

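In shGFP cells, the counts of 1694 higher and 1772 lower genes stayed within 1.5 times under every alternative except the fold limits. Limits of 0.5 and 1 left 101 and 21 higher and 73 and 5 lower genes. Leaving out 1 library gave 1441 to 1787 higher and 1526 to 1832 lower. Without untreated replicates 1 and 4, an alternative chosen after seeing the data, 1168 rose and 1216 fell. In shKDM1A cells the limits left 84 and 18 higher and 57 and 3 lower, and leaving out 1 library gave 1498 to 1766 and 1520 to 1789. The difference between the lines varied more, with 300 to 611 higher and 228 to 493 lower when 1 library was left out, 177 and 171 without replicates 1 and 3 of IL4-treated shKDM1A cells, 4 and 13 beyond 0.5, and 0 and 1 beyond 1. No named gene changed sign together with a call under the alternatives run.

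With a replicate block, 1690 genes were higher and 1740 lower, and the difference gave 397 and 335. The block also ended the call of Cd80 in shGFP cells (-0.13, adjusted p = 0.0563). The labels do not tie equal replicate numbers to a shared culture or day. Deviations of same-numbered shGFP libraries correlated at 0.043, 0.067, 0.001 and -0.002, and 2 of 4 untreated libraries correlated best with their own number, so the numbers were not taken as pairing.

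Alternative activation had 8 genes called in place of 13 when a mean of at least 5 was required, since its weak members then left the test. Without untreated replicates 1 and 4 fewer members were called for chemokines (5), chemokine receptors (2), Toll-like receptors (8), arginine metabolism (5), ribosome biogenesis (5) and mitosis (5). For glycolysis the cause of the smaller count after quantile normalization was not tested. Genes with few reads are limited by depth, since their values are shrunk toward the mean.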
